A study of Mus musculus with 29 samples.

Results

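Circulating monocytes of mice were compared between stroke day 14 and sham surgery, gene by gene, in single-cell transcript counts from Drop-seq, a droplet method that tags each captured transcript with the barcode of its cell. The cells were those with the deposited parent code Mo in the blood libraries, and their counts were summed per library. The comparison holds 4758 monocytes among the 33372 cells of 7 libraries: 2401 in 4 sham libraries taken at day 2 and 2357 in 3 stroke libraries taken at day 14. The 4 stroke libraries of day 2, with 1800 monocytes, entered the same fit. The series holds 29 libraries, of which 11 are blood, with 6558 monocytes among 51709 cells. All blood donors were C57BL/6J males of 8 to 10 weeks. Stroke was made by closing a middle cerebral artery for a limited time, and the comparison animals had sham surgery. Each library pooled the blood of 2 mice, drawn from the heart, and red cells had been lysed and depleted with a Ter-119 antibody. Brilliant Blue G and actinomycin D, an inhibitor of transcription, were used in all groups. The sham libraries are of day 2, so that stroke and the longer time since surgery cannot be told apart. P-values measure the spread between these pools of animals.

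Monocytes leave the bone marrow as classical cells, which carry Ly6c2 and Ccr2, and part of them mature in the blood into patrolling nonclassical cells that carry Cx3cr1, Ace and Treml4. Both respond to interferons, the cytokines of antiviral and antibacterial defence, through STAT and IRF transcription factors that switch on sets of target genes. Type I interferon acts on nearly all cells, and interferon gamma, made by lymphocytes, also raises antigen presentation on MHC molecules. After stroke, blood monocytes are known to enter the injured brain.

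The deposited monocyte code matched its markers. Levels are given as CPM, the counts of a gene relative to all counts of the same cells, scaled to a common total. The summed level of 14 monocyte markers was 59885 CPM over the pooled cells of the code, against 24353 in dendritic cells, 7587 in neutrophils and 1077 in B cells. The 7 libraries compared held 349 to 1029 monocytes with 386143 to 851896 summed counts, at a median of 496 to 979.9 counts per cell, so that low genes rest on few counts. Sham replicates 1 and 2 and day 14 replicate 1 carry a run code that starts with 18, and sham replicates 3 and 4 and day 14 replicates 2 and 3 one that starts with 19. These are called run years here. Whether the code marks sequencing, collection or both is not stated. Within-year values stand beside most called genes and part of the lists, and not beside every other gene named. At most 7 barcodes were shared between any pair of libraries. The deposited counts are fractional, and the abundant neutrophil transcript S100a8, 0.439% to 9.30% of all counts of a library, was at most 0.0377 CPM in B cells. In monocytes it reached 178 CPM in sham replicate 3, 45 CPM in stroke day 2 replicate 2 and 26.7 CPM in day 14 replicate 1, and was at most 2.39 CPM in each other library. The step that made the counts fractional is not given in the sources used here, and a value that it set to 0 cannot be told apart from an absent transcript.

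At stroke day 14, 17 of 6706 tested genes (0.254%) differed from sham at an adjusted p under 0.05 and are referred to as called, 7 of them higher (0.104%) and 10 lower (0.149%). The test was the quasi-likelihood test of edgeR with Benjamini-Hochberg adjustment over all genes tested. The higher genes were Rsad2, Ifit3 and Ifi47, which are on the interferon lists described below, Ifi205, Slfn9 and Lgals3bp, and the lectin receptor gene Cd209a. Ifi205, Slfn9 and Lgals3bp are on no list used here; they are known as interferon-inducible and were grouped with the first 3 after the calls were seen. The lower genes were granule and acute-phase transcripts (Wfdc21, Lcn2, Lrg1, Prtn3 and Hp), the adhesion and receptor genes F11r, Jaml and Cd300lf, the metal-binding gene Mt1, and Shtn1. Over all tested genes the log2 fold changes had a median of -0.02, and 47.1% of them were above 0. In each of the 17 called genes the 3 day 14 libraries did not overlap the 4 sham libraries, which held for 3.71% of all genes in the higher and 3.3% in the lower direction. The calls were made on the same libraries, so that the missing overlap describes the called genes and is no separate support. The number of calls depended on single libraries. It was 4 without day 14 replicate 1 (Wfdc21, Lcn2, Prtn3 and Mt1), 2 without day 14 replicate 2 (Wfdc21 and Lcn2), 11 without day 14 replicate 3, 9 without sham replicate 2, 10 without stroke day 2 replicate 2 and 27 without sham replicate 4. Of the 11 fits that each left out 1 library, the number in which a gene was called was 11 for Wfdc21 and Lcn2, 10 for Prtn3, 9 for Lrg1, Cd209a, F11r and Mt1, 8 for Ifi47 and Ifi205, 7 for Jaml, 6 for Lgals3bp, Cd300lf and Ifit3, 4 for Shtn1, 3 for Slfn9 and Rsad2 and 1 for Hp. With only sham and day 14 in the fit there were 13 calls, 10 of the 17 among them. The 7 others, Slfn9, Cd300lf, Lgals3bp, Rsad2, Ifit3, Shtn1 and Hp, had edgeR adjusted p of 0.0711 to 0.118 there, so that of the 6 interferon-related genes Ifi47 and Ifi205 remained called. With the run year as a term it was 28, with all 17 among them, and in the libraries of run year 19 alone it was 7, with 5 of the 17 among them.

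**Figure D1:**
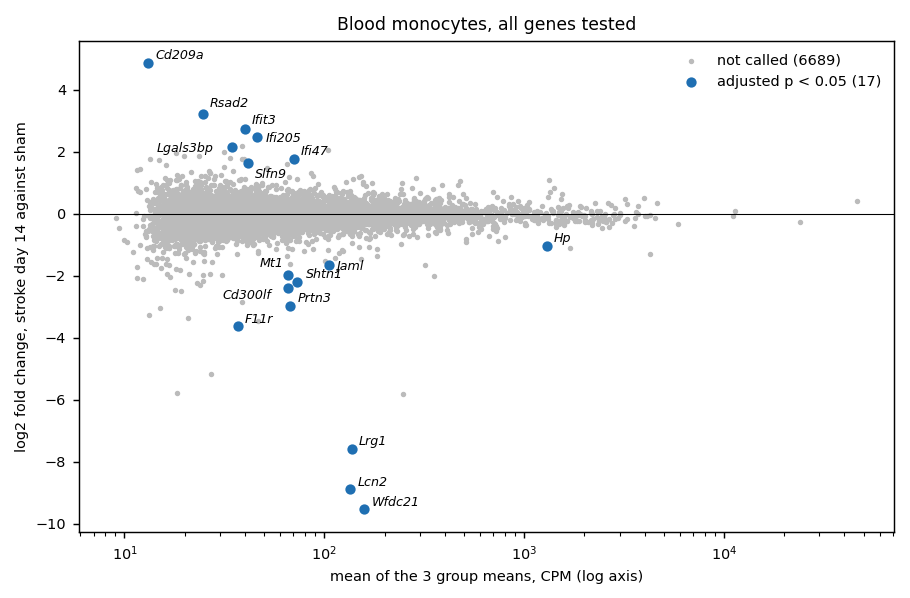
Each point is 1 of the 6706 genes tested in blood monocytes, by its mean level (CPM, log axis) and its log2 fold change at stroke day 14 against sham; blue points are the 17 called genes. Wfdc21, Lcn2 and Lrg1 have the lowest values of all genes plotted, and Cd209a the highest.

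**Figure D2:**
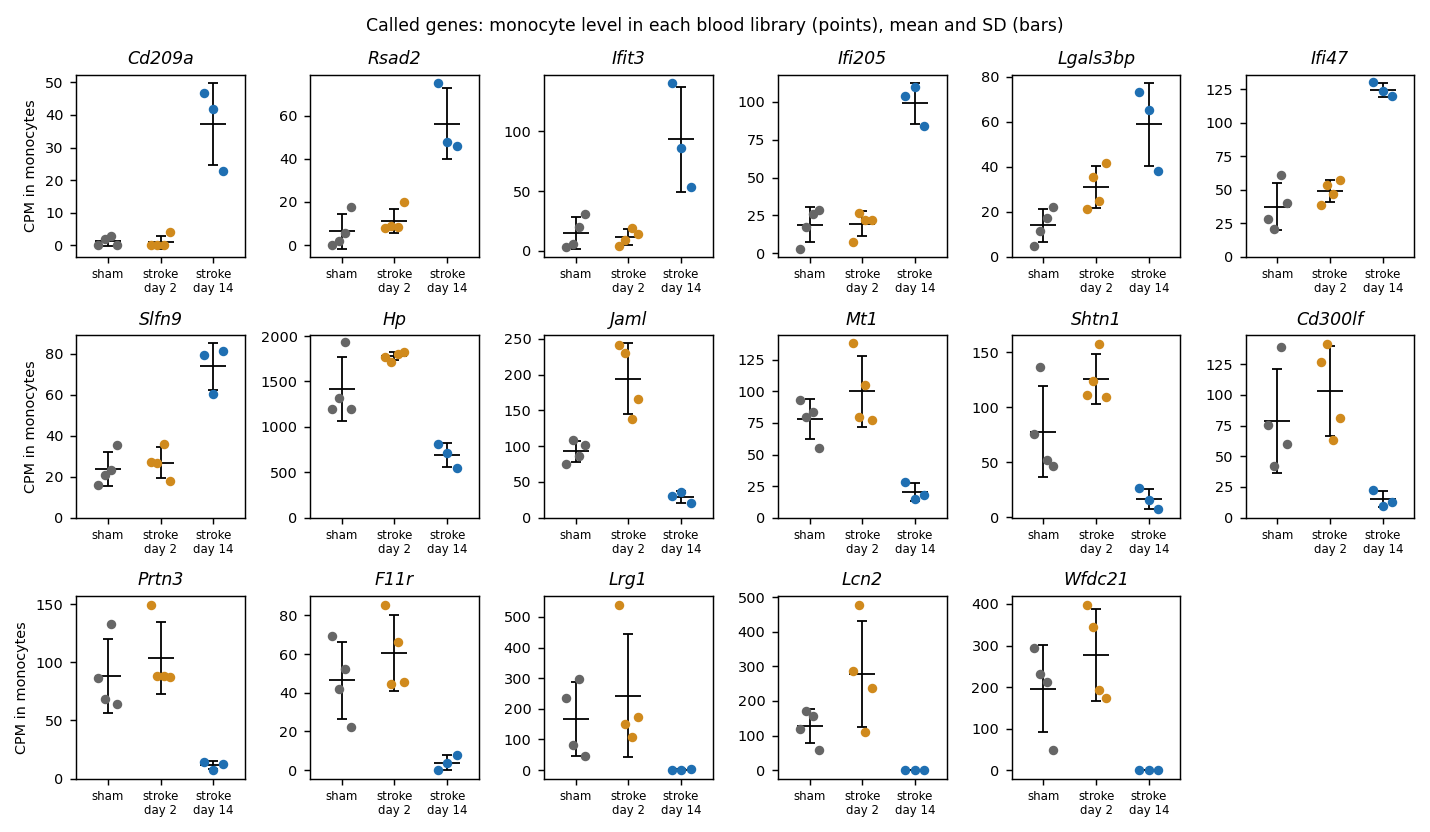
Level of each called gene in monocytes (CPM) in every blood library, as points for 4 sham, 4 stroke day 2 and 3 stroke day 14 libraries, with the mean and SD. In all 17 panels the day 14 libraries lie apart from the sham libraries.

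Among these 6 interferon-related genes, Rsad2 and Ifit3 had the largest log2 fold changes. Rsad2 encodes viperin, an antiviral enzyme. It stood at 0, 1.89, 5.79 and 17.7 CPM in sham and at 75.3, 48.1 and 45.9 CPM at day 14, a log2 fold change of 3.22 ± 0.62 (SE) with an edgeR adjusted p of 0.0365. Ifit3, whose product binds other antiviral IFIT proteins, stood at 3.15, 5.68, 20.3 and 31.0 CPM in sham and at 140.5, 86.3 and 53.5 CPM at day 14 (2.73 ± 0.53, edgeR adjusted p = 0.0365). In both genes sham replicates 3 and 4, of run year 19, were the highest sham libraries, and day 14 replicate 1, of run year 18, was the highest of all. The difference in mean log2(CPM + 1) was 5.49 within run year 18 and 2.09 within run year 19 for Rsad2, and 4.75 and 1.40 for Ifit3. Day 14 was above sham in both years.

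Ifi205, of the PYHIN family of interferon-inducible nuclear proteins, stood at 3.15, 17.1, 26.1 and 28.8 CPM in sham and at 104, 109.7 and 84.1 CPM at day 14 (2.49 ± 0.43, edgeR adjusted p = 0.0186). Ifi47, an interferon-inducible GTPase, stood at 28.4, 20.8, 60.8 and 39.9 CPM in sham and at 130.3, 123 and 119.7 CPM at day 14 (1.78 ± 0.29, edgeR adjusted p = 0.0152). Slfn9, of the Schlafen family, stood at 15.8, 20.8, 23.2 and 35.5 CPM in sham and at 79.4, 60.4 and 81.5 CPM at day 14 (1.63 ± 0.31, edgeR adjusted p = 0.0365). In these 3 genes the day 14 libraries all lay above the highest sham library. Lgals3bp, a secreted glycoprotein that binds galectin-3, stood at 4.73, 11.4, 17.4 and 22.2 CPM in sham and at 73.3, 65.3 and 38.2 CPM at day 14 (2.16 ± 0.41, edgeR adjusted p = 0.0365). Within run years 18 and 19 the difference in mean log2(CPM + 1) was 3.60 and 1.77 for Ifi205, 2.37 and 1.28 for Ifi47, 2.07 and 1.26 for Slfn9, and 3.14 and 1.31 for Lgals3bp. The direction was thus the same in both years for each of these genes. In run year 19 alone none of the 6 interferon-related genes was called by edgeR. Their log2 fold changes there were 1.23 for Slfn9, 1.30 for Ifi47, 1.43 for Lgals3bp, 1.46 for Ifit3, 1.83 for Ifi205 and 1.92 for Rsad2, with adjusted p from 0.0684 for Ifi205 to 0.322 for Slfn9. Ifit3, Ifi205 and Slfn9 belong to families with similar copies in the genome, between which the counting may have split reads.

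The promoters of these genes are shown because some hold the letters that interferon-activated factors are known to bind. The core of the interferon-stimulated response element was searched as GAAANNGAAA on both strands, with N for any base, in RefSeq promoters of GRCm38.p6 that span 250 bases before and 50 after each gene start. It was present in 4 of the 7 promoters of genes called higher and in 1 of 7 of those called lower (Jaml), against 3.44% of all 32851 promoters in the table and 4.79% of 5056 tested genes with a promoter. A match is a description of the sequence. The 170 bases before the start are printed from 5′ to 3′ on the strand of the gene, with the matches in capitals, for Rsad2 (chr12:26456453-26456622, minus strand), Ifit3 (chr19:34583359-34583528, plus strand), Ifi205 (chr1:174031756-174031925, minus strand) and Slfn9 (chr11:82991831-82992000, minus strand).
Rsad2: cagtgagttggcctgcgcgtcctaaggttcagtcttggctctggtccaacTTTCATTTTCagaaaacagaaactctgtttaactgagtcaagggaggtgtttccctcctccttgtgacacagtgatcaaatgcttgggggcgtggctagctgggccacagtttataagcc
Ifit3: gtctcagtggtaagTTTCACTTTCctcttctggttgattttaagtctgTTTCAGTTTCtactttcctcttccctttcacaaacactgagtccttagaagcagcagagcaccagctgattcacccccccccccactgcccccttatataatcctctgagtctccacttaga
Ifi205: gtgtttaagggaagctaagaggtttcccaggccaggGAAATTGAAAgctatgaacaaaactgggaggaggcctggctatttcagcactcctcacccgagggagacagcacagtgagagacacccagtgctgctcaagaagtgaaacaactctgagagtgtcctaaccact
Slfn9: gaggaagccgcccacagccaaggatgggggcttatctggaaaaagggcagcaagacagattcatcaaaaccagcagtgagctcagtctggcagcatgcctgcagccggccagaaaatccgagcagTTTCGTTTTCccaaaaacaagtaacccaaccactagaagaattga
The matches began 120 bases before the start in Rsad2, 156 and 122 bases before it in Ifit3, 134 in Ifi205 and 45 in Slfn9. In Rsad2, Ifit3 and Slfn9 the motif reads on the opposite strand, and Ifi205 has 1 further match outside the stretch shown. Ifi47, Lgals3bp and Cd209a had no match in this window.

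Across a list of 25 type I interferon targets, 21 were tested and all 21 had a positive log2 fold change, with a median of 1.18 against -0.02 for all genes. Of these, 16 had an unadjusted p under 0.05 in the higher direction, which held for 2.77% of all genes, and 2 were called (Rsad2 and Ifit3). The lists used here were chosen with earlier results of these data known. Their shares thus describe the members and are no independent support. Usp18, which removes the modifier ISG15 from proteins, stood at 9.46, 7.58, 20.3 and 15.5 CPM in sham and at 52.9, 55.5 and 30.6 CPM at day 14 (1.88 ± 0.39, edgeR adjusted p = 0.0551). Bst2, known as tetherin, stood at 85.1, 66.3, 113 and 168 CPM in sham and at 293, 233 and 204 CPM at day 14 (1.18 ± 0.28, edgeR adjusted p = 0.122). Both were above every sham library at day 14 without passing the adjusted threshold. With the run year as a term Usp18 passed (edgeR adjusted p = 0.0409). Usp18 was called in 5 of 22 and Bst2 in 4 of 23 alternative fits. Isg15, the ubiquitin-like modifier itself, stood at 12.6, 9.47, 89.8 and 64.3 CPM in sham and at 169, 115 and 91.7 CPM at day 14 (1.601 ± 0.53, edgeR adjusted p = 0.453). Irf7, the transcription factor that amplifies type I interferon, stood at 55.2, 64.4, 188 and 188 CPM in sham and at 338, 219 and 189 CPM at day 14 (1.04 ± 0.37, edgeR adjusted p = 0.555). In Isg15 and Irf7 day 14 replicate 3 lay just above the highest sham library. The other members with an unadjusted p under 0.05 were Ifit1, Ifit2, Oasl2, Oas1a, Ifi209, Ifi213, Mx1, Rtp4, Slfn5 and Slfn8, with log2 fold changes from 0.54 for Ifi209 to 2.19 for Ifit2. Within the deposited finer code Mo1, the largest over the pooled day 14 cells, 6 of these 16 genes were tested, each with a smaller log2 fold change than over all monocytes and none called: -0.01 for Ifi209, 0.06 for Irf7, 0.29 for Oas1a, 0.29 for Slfn5, 0.38 for Bst2 and 0.60 for Slfn8. Isg15 was at 447 CPM over the pooled cells of code Mo4 and 13.7 to 67.6 CPM in the other codes, and the share of Mo4 was higher in each day 14 library than in any sham library.

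The size of the type I interferon difference varied with the run year. The members' summed level was 3713, 3350.1, 6649 and 6653 CPM in sham replicates 1 to 4 and 8277, 7304 and 6677 CPM in day 14 replicates 1 to 3. The run year 19 sham libraries thus lay close to the lowest day 14 library. The median difference of the members in log2(CPM + 1) was 2.12 within run year 18, with 1 day 14 and 2 sham libraries, and 0.43 within run year 19, with 2 of each. All 21 were above 0 in year 18 and 18 in year 19, against medians of 0.01 and 0.02 over all genes. The part of the run in this result cannot be told apart from the libraries it holds.

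Targets of interferon gamma also had positive values. Of 17 listed genes 11 were tested, and all 11 were above 0 with a median log2 fold change of 0.86. An unadjusted p under 0.05 in the higher direction was reached by 10, against 2.77% of all genes, and 1, Ifi47, was called. Irf1, a transcription factor and early interferon target, stood at 75.7, 70.1, 116 and 84.2 CPM in sham and at 167, 144 and 155 CPM at day 14 (0.86 ± 0.23, edgeR adjusted p = 0.239). Gbp2, a guanylate-binding protein, stood at 22.1, 37.9, 40.5 and 17.7 CPM in sham and at 52.9, 77.7 and 56.0 CPM at day 14 (1.11 ± 0.30, edgeR adjusted p = 0.239). Day 14 lay above every sham library in Irf1 and Gbp2, without passing the adjusted threshold. Gbp3, Gbp7, Igtp, Irgm1, Tap1 and Psmb8 had log2 fold changes from 0.40 to 0.96. The median difference of the members in log2(CPM + 1) was 1.19 within run year 18 and 0.51 within run year 19.

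For antigen presentation, 12 of 13 MHC class I genes were tested, and all 12 were above 0 with a median of 0.56. Of these, 5 had an unadjusted p under 0.05 in the higher direction, against 2.77% of all genes, and none was called. Those of the 5 other than H2-K1, H2-D1 and H2-T23 are also on other lists used here. H2-K1, a classical class I heavy chain, stood at 1239, 1124, 814 and 1128 CPM in sham and at 1983, 1541 and 1755 CPM at day 14 (0.71 ± 0.19, edgeR adjusted p = 0.231). H2-D1, the other classical heavy chain, stood at 3840.2, 3174, 3188 and 3691 CPM in sham and at 5359, 4402 and 5177 CPM at day 14 (0.52 ± 0.16, edgeR adjusted p = 0.389). Both genes were higher in each day 14 library than in any sham library. In H2-T23, a nonclassical class I gene, the log2 fold change was 0.82 ± 0.24 (edgeR adjusted p = 0.362). The members' summed level was 8474 to 11128 CPM in sham and 12901 to 15029 CPM at day 14. Their median difference in log2(CPM + 1) was 0.79 within run year 18 and 0.49 within run year 19.

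Of 11 genes of the MHC class II list 8 were tested, with a median log2 fold change of 0.97. An unadjusted p under 0.05 in the higher direction was reached by 4, against 2.77% of all genes. The only call was the lectin receptor gene Cd209a, which the list also held, and no other member was called. Within run years 18 and 19 the median difference of the members in log2(CPM + 1) was 1.22 and 1.44. Cd74, the invariant chain of class II, stood at 1914, 604, 970.2 and 696 CPM in sham and at 2539, 1531 and 2693 CPM at day 14 (1.10 ± 0.39, edgeR adjusted p = 0.537). H2-Aa, a class II alpha chain, stood at 438, 135, 188 and 109 CPM in sham and at 564, 305 and 601 CPM at day 14 (1.15 ± 0.42, edgeR adjusted p = 0.616). Sham replicate 1 overlapped the day 14 libraries in both genes, as it did in H2-Ab1 (1.05 ± 0.42). In CPM over pooled cells, B cells held Cd74 at 13.2 times and dendritic cells H2-Aa at 20.6 and H2-Ab1 at 17.7 times the monocyte level. The 10 B cell markers summed to 104 to 304 CPM in monocytes of sham and 203 to 295 CPM at day 14, and Ighm (0.46 ± 0.33) and Cd79b (0.07 ± 0.45), the only members tested, were not called; B cells held them at 27.3 and 85.9 times the monocyte level. Among the monocytes, the small code Mo5 held H2-Ab1 at 5002 CPM against 43.6 to 172 CPM in the other codes, and H2-Aa at 2967 against 29.9 to 128 CPM. Mo5 made up 4.61% to 7.96% of monocytes in sham and 7.97% to 10.1% at day 14. Within Mo1 the log2 fold change was -0.02 for H2-Ab1 and 0.27 for Cd74, neither called. The part of other cell types and of the mixture of codes in the class II values was not tested.

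Cd209a encodes a C-type lectin related to DC-SIGN and is known from monocyte-derived dendritic cells. It stood at 0, 1.89, 2.90 and 0 CPM in sham and at 46.8, 41.9 and 22.9 CPM at day 14 (4.87 ± 0.77, edgeR adjusted p = 0.0129). The sham level rests on 2 counts over all 4 libraries against 66 counts at day 14, a ratio of 38.1 relative to depth with a 95% exact counting interval of 10.1 to 321, which covers counting error only. A value above 0 was seen in 2 of 2401 sham and 40 of 2357 day 14 monocytes. Dendritic cells held it at 116 times the monocyte level. Over libraries with at least 20 dendritic cells, their mean was 552 CPM in sham and 1766 CPM at day 14. In sham only replicates 1 and 2, both of run year 18, held that many. The share of dendritic cells among blood cells was 0.502% ± 0.109 (SD, n = 4) in sham and 2.29% ± 0.915 (n = 3) at day 14. Within run years 18 and 19 the difference in mean log2(CPM + 1) was 4.81 and 4.02. Of the other dendritic markers in monocytes, Klrd1 was at 0 to 4.04 CPM in sham and 3.84 to 13.8 CPM at day 14, Runx2 at 12 to 29.3 and 6.63 to 22.5 CPM, and Ccr9, Itgae and Cox6a2 at most 3.17 CPM in either group. Siglech and Zbtb46 were at 0 in all libraries, Clec9a reached 3.85 CPM at day 14, and Flt3 was at 10.4 to 43.0 CPM in sham and 0 to 20.9 CPM at day 14. The 11 dendritic markers in the table, Cd209a and Bst2 among them, summed to 129 to 202 CPM in sham and 257 to 387 CPM at day 14. The part of dendritic cells in the Cd209a result was not tested.

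**Figure D3:**
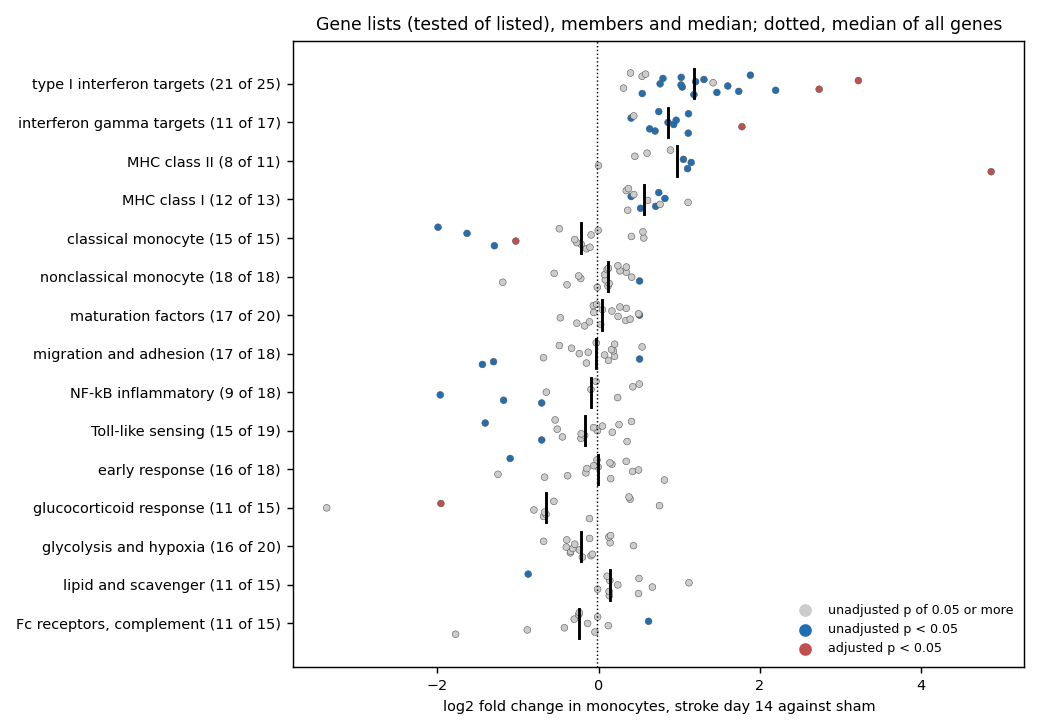
Log2 fold change at stroke day 14 against sham for the tested members of 15 gene lists (points), with the median of each list (bar); colours give the unadjusted and adjusted p, and the dotted line is the median of all genes. The interferon and MHC lists lie to the right, with medians of 0.56 to 1.18, and the other lists have medians between -0.65 and 0.14.

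The lowest fitted log2 fold changes were in transcripts that neutrophils hold at high levels. They rest on day 14 counts at or near 0, so that the ranking holds for the fitted values only. Wfdc21, a small protein of the whey acidic protein family, stood at 293, 231, 211 and 48.8 CPM in sham and at 0 in all 3 day 14 libraries (edgeR adjusted p = 0.00143). Lcn2, which encodes the iron-scavenging granule protein lipocalin 2, stood at 119.8, 171, 156 and 59.9 CPM in sham and likewise at 0 at day 14 (edgeR adjusted p = 0.00143). Lrg1, a secreted leucine-rich glycoprotein, stood at 236, 83.4, 298 and 46.6 CPM in sham and at 0, 0 and 2.55 CPM at day 14 (edgeR adjusted p = 0.0119). Its day 14 level rests on 1 count against 318 in sham. No fold in monocytes is printed for these 3 genes from counts at or near 0, since the fractions can set it. The figures plot their fitted values, which are not to be read as folds. Day 14 lay below sham within both run years in each of them. Sham replicate 4 was the lowest of the sham libraries in all 3 genes. It had the smallest share of neutrophils among them and also the smallest share of the finer code Mo2 among monocytes (18.3%). Stroke day 2 replicate 3, with a neutrophil share of 11.7% and an Mo2 share of 57.0%, held Wfdc21 at 194 CPM. Stroke day 2 replicate 4, with 54.4% and 50.9%, held it at 174 CPM. The part of either share was not tested. In the same order Lcn2 was at 111 and 237 CPM and Lrg1 at 108 and 174 CPM, with replicate 3 the lowest stroke day 2 library in both.

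The zeros of these 3 genes hold cells with very small values. In the day 14 libraries 39 monocytes had a value of Lcn2 above 0, but the values summed to 0.000129, against a mean of 1.01 per cell in 243 sham monocytes. For Wfdc21 17 day 14 monocytes had a value, with a sum of 0 to the precision kept, against a mean of 1.20 in 335 sham monocytes. For Lrg1 13 day 14 monocytes had a mean of 0.0746 against 1.25 in 253 sham monocytes. In the other lower genes the day 14 mean per cell with a value was 0.826 or more. With each value rounded up before the sum, the log2 fold changes were -4.75 for Wfdc21, -2.90 for Lcn2 and -4.62 for Lrg1, with edgeR adjusted p of 0.00332, 0.0214 and 0.0232. The sizes of these changes thus depended on the fractional values. Direction and call held with rounding up, which leaves a value of exactly 0 unchanged. Whether they depend on the step that made the fractions was not tested. Neutrophils held Wfdc21 at 42.1, Lcn2 at 42.2 and Lrg1 at 23.7 times the monocyte level in CPM over pooled cells. The neutrophil share of blood cells was 35.6%, 26.1%, 48.5% and 12.4% in sham and 20.9%, 22.4% and 11.4% at day 14. The 12 neutrophil markers, Wfdc21 and Lcn2 among them, summed to 182 to 689 CPM in monocytes of sham and 57.9 to 106 CPM at day 14, with Cxcr2 and Camp at 0 in all libraries of both groups. Without Wfdc21 and Lcn2 the sums were 58.3, 45.5, 321 and 73.2 CPM in sham and 106, 57.9 and 91.7 CPM at day 14, which overlap. Csf3r, the receptor for the neutrophil growth factor G-CSF, was at 47.1 to 62.5 CPM in sham and 47.4 to 92.0 CPM at day 14. The part of neutrophil transcripts in these results was not tested.

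Prtn3 and Hp were lower without reaching 0. Prtn3, the granule protease of myeloid precursors, stood at 86.7, 68.2, 133 and 64.3 CPM in sham and at 14.3, 7.40 and 12.7 CPM at day 14 (-2.97 ± 0.39, edgeR adjusted p = 0.00203). In CPM over pooled cells, blood cells with the deposited parent code pre held Prtn3 at 6.13 times the monocyte level and those with code UC at 0.360 times, on 0.754 counts. The other 6 types held it at 0.0947 times or less. Cells with code pre made up 0.257% ± 0.366 (SD, n = 4) of blood cells in sham and 0.459% ± 0.296 (n = 3) at day 14, and their part in the Prtn3 result was not tested. Within run years 18 and 19 the difference in mean log2(CPM + 1) was -2.35 and -3.12. Hp, which encodes haptoglobin, a carrier of free haemoglobin, stood at 1201, 1321, 1937 and 1199 CPM in sham and at 810.4, 714 and 550.3 CPM at day 14 (-1.03 ± 0.21, edgeR adjusted p = 0.0480). Neutrophils held Hp at 3.60 times the monocyte level, and the within-year differences were -0.64 and -1.28. Hp was called in 7, Slfn9 in 11, and Rsad2 and Shtn1 in 12 each of all 23 alternatives, the lowest numbers of the 17 genes.

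Of the adhesion and receptor genes, F11r, which encodes the junctional adhesion molecule JAM-A, stood at 69.4, 41.7, 52.1 and 22.2 CPM in sham and at 0, 3.70 and 7.64 CPM at day 14 (-3.62 ± 0.58, edgeR adjusted p = 0.0133). Jaml, an adhesion molecule that aids the passage of leukocytes through epithelia, stood at 75.7, 108, 86.9 and 102 CPM in sham and at 30.5, 35.8 and 20.4 CPM at day 14 (-1.63 ± 0.29, edgeR adjusted p = 0.0205). Cd300lf, an inhibitory receptor for lipids, stood at 75.7, 41.7, 139 and 59.9 CPM in sham and at 22.4, 9.86 and 12.7 CPM at day 14 (-2.39 ± 0.46, edgeR adjusted p = 0.0365). All 3 were lower in every day 14 library than in any sham library, and neutrophils held Jaml at 6.59 and Cd300lf at 12.2 times the monocyte level. Mt1, the metal-binding protein metallothionein 1, stood at 93.0, 79.6, 84.0 and 55.4 CPM in sham and at 28.5, 14.8 and 17.8 CPM at day 14 (-1.96 ± 0.33, edgeR adjusted p = 0.0160). Shtn1, known from neurons as the axon guidance adaptor shootin 1, stood at 75.7, 136, 52.1 and 46.6 CPM in sham and at 26.5, 16 and 7.64 CPM at day 14 (-2.19 ± 0.42, edgeR adjusted p = 0.0365). These 2 genes showed no overlap either, and for run years 18 and 19 the differences in mean log2(CPM + 1) were -5.78 and -2.46 for F11r, -1.54 and -1.76 for Jaml, -1.29 and -2.92 for Cd300lf, -1.56 and -2.01 for Mt1 and -1.90 and -2.05 for Shtn1. With values rounded up, Jaml (-1.35, edgeR adjusted p = 0.0654) and Cd300lf (-2.20, edgeR adjusted p = 0.0604) no longer passed.

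The lists of monocyte maturation gave 1 call. All 15 classical genes were tested, with a median log2 fold change of -0.22, and 4 were lower at an unadjusted p under 0.05, which held for 2.68% of all genes; of these Hp was called. Vcan, the matrix proteoglycan versican, stood at 337, 622, 281 and 162 CPM in sham and at 99.8, 75.2 and 91.7 CPM at day 14 (-1.99 ± 0.42, edgeR adjusted p = 0.0599). Mmp8, a collagenase, stood at 222, 388, 440.2 and 228 CPM in sham and at 120.1, 129 and 51.0 CPM at day 14 (-1.63 ± 0.34, edgeR adjusted p = 0.0551). Chil3, a chitinase-like protein of young classical monocytes, stood at 2391, 4639, 4804 and 4209.7 CPM in sham and at 1733, 1708 and 1462 CPM at day 14 (-1.29 ± 0.30, edgeR adjusted p = 0.112). Day 14 lay below every sham library in Vcan, Mmp8 and Chil3, while the summed level of the classical list, 41845 to 71108 CPM in sham and 57985 to 75475 CPM at day 14, overlapped. With the run year as a term Vcan and Mmp8 passed (edgeR adjusted p = 0.0327 and 0.0325). Vcan was called in 6, Mmp8 in 8 and Chil3 in 4 of 23 alternative fits. All 18 nonclassical genes were tested with a median of 0.11 and none called. Cx3cr1, the fractalkine receptor, stood at 408, 406, 249 and 381 CPM in sham and at 499, 451 and 599 CPM at day 14 (0.51 ± 0.23, edgeR adjusted p = 0.842).

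Other lists gave few or no calls. Among 11 tested glucocorticoid targets of 15 the median was -0.65, and Mt1 was called. Of 9 tested inflammatory targets of NF-kB, 3 had an unadjusted p under 0.05: Ier3 (-1.97 ± 0.54), the glycolipid receptor Clec4e (-1.18 ± 0.27) and the endotoxin co-receptor Cd14 (-0.71 ± 0.31). Clec4e stood at 121, 136, 139 and 133 CPM in sham and at 71.3, 56.7 and 45.9 CPM at day 14, without overlap (edgeR adjusted p = 0.112). Of 17 tested genes of migration and adhesion, 1 had an unadjusted p under 0.05 in the higher and 2 in the lower direction, among them Cx3cr1 and the chemokine receptor gene Ccr1 (-1.44 ± 0.40, edgeR adjusted p = 0.247). The endotoxin receptor Tlr4 (-1.41 ± 0.47) joined Cd14 among 15 tested sensing genes. Trem2 (-0.87 ± 0.28) was the 1 such gene of 11 tested lipid and scavenger genes, Fcgr1 (0.62 ± 0.26) the 1 of 11 Fc receptor and complement genes, Irf5 (0.51 ± 0.24) the 1 of 17 maturation factors and Zfp36l1 (-1.10 ± 0.35) the 1 of 16 early response genes. None of the 16 tested glycolysis genes was among them, with Pkm (-0.11 ± 0.24), Aldoa (-0.20 ± 0.36) and Gapdh (-0.35 ± 0.20) the most abundant. Of 14 proliferation genes 2 passed the filter on low counts, Pcna (0.50 ± 0.25) and Tubb5 (-0.26 ± 0.28). In 8 lists the median difference in log2(CPM + 1) had opposite signs in run years 18 and 19: 0.05 and -0.32 for the classical and -0.06 and 0.59 for the nonclassical list, -0.46 and 0.21 for glucocorticoid targets, -0.33 and 0.19 for NF-kB targets, -0.09 and 0.25 for early response genes, -0.16 and 0.31 for migration and adhesion, -0.02 and 0.04 for sensing genes and 0.0066 and -3.82 for the 5 tested neutrophil markers, Wfdc21 and Lcn2 among them. T cell, NK cell, platelet and red cell markers had no member above the filter. The 10 NK cell markers summed to 148 CPM in day 14 replicate 3, apart from 36.7 and 9.86 CPM in the other day 14 libraries and 6.31 to 31.0 CPM in sham, and the part of NK cells in the results was not tested beyond leaving that library out.

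The same day 14 libraries were also set against stroke day 2, a comparison that shares them with the one against sham. There 36 of 6706 genes were called (0.537%), 6 higher (0.0895%) and 30 lower (0.447%). Against stroke day 2 Wfdc21, Lcn2 and Lrg1, at or near 0 at day 14, were called lower, and the edgeR log2 fold changes of the other lower genes were -4.04 for F11r, -3.25 for Prtn3, -2.85 for Shtn1, -2.75 for Cd300lf, -2.67 for Jaml, -2.34 for Mt1 and -1.36 for Hp, all called. Cd209a (4.58), Ifit3 (2.999) and Ifi205 (2.47) were called higher. Ifi47 (1.36, adjusted p = 0.0521), Slfn9 (1.46, adjusted p = 0.0521), Rsad2 (2.22, adjusted p = 0.138) and Lgals3bp (0.98, adjusted p = 0.466) did not pass in edgeR. Of the list genes named above, Chil3 (-2.12), Vcan (-2.79), Mmp8 (-2.37), Clec4e (-1.57), Cd14 (-1.85) and Ccr1 (-2.28) were called lower against stroke day 2. Jaml was at 241, 230.3, 138 and 166 CPM at stroke day 2, above all sham and all day 14 libraries. Stroke day 2 against sham gave 0 calls (0%) in edgeR and 0 in DESeq2, with 189 genes at an unadjusted p under 0.05 in edgeR. The count of 36 was 22, 11 and 21 without day 14 replicate 1, 2 or 3, 19 without stroke day 2 replicate 1 and 55 without sham replicate 3.

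The deposited finer codes divide the monocytes into Mo1 to Mo5, and the mixture differed between the groups. Because these codes rest on the same expression values, their shares are described without a test. Mo2 made up 31.8%, 50.7%, 35.2% and 18.3% of monocytes in sham, 50.9% to 59.2% at stroke day 2, and 1.51%, 2.14% and 4.71% at day 14. The Mo2 share at day 14 lay below every library of the other groups. Mo4 made up 0.519%, 2.19%, 5.44% and 10.7% in sham, with the run year 19 libraries the higher, and 17.9%, 12.9% and 14.1% at day 14. Mo5 made up 4.61% to 7.96% in sham and 7.97% to 10.1% at day 14, Mo1 9.17% to 39.0% and 34.0% to 48.4%, and Mo3 14.6% to 50.5% and 23.3% to 37.0%. In a sum over all monocytes, a different mixture of codes and a different level within a code cannot be told apart.

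**Figure D4:**
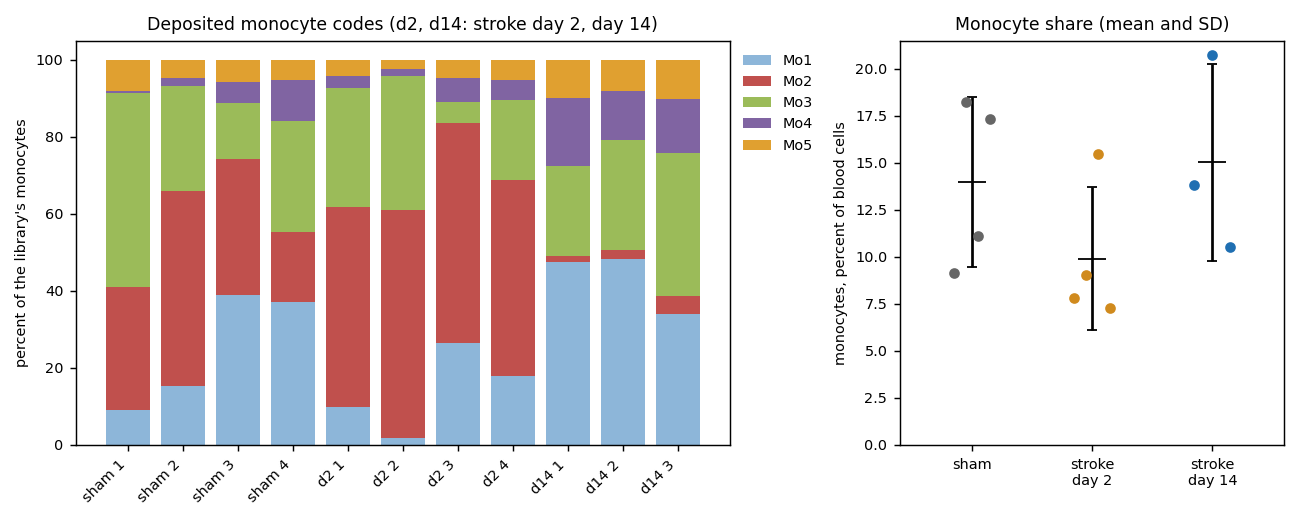
Left, shares of the deposited monocyte codes Mo1 to Mo5 in each library (percent of its monocytes); right, monocytes as a percent of blood cells, with mean and SD. Mo2 makes up 18.3% to 50.7% in sham and 1.51% to 4.71% at day 14, and the monocyte shares overlap.

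Called genes were unevenly spread over these codes. Over the pooled day 14 cells, Ifit3 stood at 455 CPM in Mo4 and 5.12 CPM in Mo1, Rsad2 at 244 and 15.4 CPM, Ifi205 at 429 and 37.1 CPM, and Slfn9 at 278 and 17.9 CPM. Within Mo4 of sham, 106 cells, the pooled levels were 191 CPM for Ifit3, 70.2 for Rsad2, 150.5 for Ifi205 and 120.4 for Slfn9. In Mo1 of sham they were 6.45, 0, 12.9 and 19.4 CPM in the same order, so that in Mo1 the pooled levels of Ifit3 and Slfn9 were not higher at day 14. Of the sham Mo4 cells, 65 came from replicate 4 and 3 from replicate 1, so that the pooled sham levels are mostly those of 1 library and the difference within Mo4 was not tested. Over the pooled cells of each group these 4 transcripts were most abundant in Mo4. The other interferon-related genes, Lgals3bp and Ifi47, had higher pooled levels at day 14 in both codes, with no test. Lgals3bp stood at 12.9 CPM in sham and 61.4 CPM at day 14 in Mo1, and at 50.2 and 134 CPM in Mo4. Ifi47 stood at 30.1 and 49.9 CPM in Mo1, and at 170.5 and 465 CPM in Mo4. Cd209a stood at 172 CPM in Mo5 and 34.6 CPM in Mo1 at day 14 and was at 0 in Mo2. Wfdc21 and Lcn2 were highest in Mo2 of sham (452 and 271 CPM) but were present in all 5 codes of sham and at 0 in all 5 at day 14. Prtn3 stood at 150 CPM in Mo2 of sham and at 178 CPM in Mo2 of day 14, the latter over 57 cells. In Mo1 it stood at 83.9 and 10.2 CPM. Its fitted log2 fold change within Mo2 was -0.65 ± 0.80 and not called. The pooled levels of Cd300lf and Shtn1 were lower at day 14 in each code, with no test, for example in Mo4 with 130.4 against 16.7 CPM for Cd300lf and 120.4 against 16.7 CPM for Shtn1.

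With Mo2 cells left out of the sums, an alternative added after seeing the data, 4 genes were called, all lower: Wfdc21, Lcn2, Lrg1 and Cd300lf (-2.23). Cd209a was not among the genes tested there. The 6 interferon-related genes kept their direction without passing, with log2 fold changes of 2.61 for Rsad2, 2.19 for Ifit3, 1.84 for Ifi205, 1.76 for Ifi47, 1.72 for Lgals3bp and 1.57 for Slfn9. The smallest edgeR adjusted p among them was 0.0518, for Ifi47. Of the other lower genes, none of which passed, Prtn3 had a log2 fold change of -2.61, F11r -3.30 and Shtn1 -1.84, against -2.97, -3.62 and -2.19 with all cells. Jaml moved from -1.63 to -0.33, Mt1 from -1.96 to -1.09 and Hp from -1.03 to -0.62.

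Within Mo1, 7 of 2420 genes were called (0.289%). Apoe, the lipid carrier apolipoprotein E, was higher, at 1232 ± 358 CPM (SD, n = 4) in sham and 2651 ± 244 CPM (n = 3) at day 14, with a log2 fold change of 1.11 ± 0.22 (edgeR adjusted p = 0.0284). The 6 lower genes were Dpep2, a membrane dipeptidase (-2.23 ± 0.36), Wfdc21, Lrg1, Prtn3 (87.9 to 131 CPM in sham and 9.18 to 15 CPM at day 14), the antiprotease-like Wfdc17 (-0.93 ± 0.19) and the serum amyloid gene Saa3, which stood at 20.3 to 340.5 CPM in sham and 0 to 5.02 CPM at day 14. Dpep2 stood at 189 to 281 CPM in the sham and 35.5 to 64.2 CPM in the day 14 sums of Mo1, without overlap. The number of calls in Mo1 was 0 without day 14 replicate 1 or 2, 1 without sham replicate 3, 3 without day 14 replicate 3, and 4 without sham replicate 1 or 4. None of these calls was in the higher direction, so that Apoe was not called in any of these fits. Within Mo3, 1 of 2644 genes was called (0.0378%), Wfdc17, at 488 ± 215 CPM in sham and 104 ± 26.8 CPM at day 14 (-2.09 ± 0.36, edgeR adjusted p = 0.00727). Without day 14 replicate 1 or 3 there were 0 calls in Mo3, and without sham replicate 4 there were 2. Within Mo2, 0 of 4406 genes were called (0%) in edgeR and 0 in DESeq2, and 2 day 14 libraries held at least 20 such cells. There 485 genes had an unadjusted p under 0.05 in edgeR, beside a median log2 fold change of -0.46 over all genes. That median was 0.02 with scaling by library size alone, so that the 485 depend on the scaling. Apoe, Dpep2, Wfdc17 and Saa3 were chosen after their values were seen, because they were called.

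The day 14 effect of monocytes was compared with that of neutrophils and B cells of the same libraries by testing the difference of the effects. It differed from the neutrophil effect in 140 of 7403 genes (1.89%) and from the B cell effect in 68 of 8585 (0.792%). The neutrophil count was 54 or 67 when sham replicate 1 or 2 was left out. It was 89, 71 or 66 when day 14 replicate 1, 2 or 3 was. The B cell count was 34 without sham replicate 1, 27 without day 14 replicate 2 and 44 without day 14 replicate 3. Monocytes were higher in 83 and lower in 57 of the genes that differed from neutrophils, but higher in 39 and lower in 243 with scaling by library size alone, which moved the median difference of all genes from -0.06 to -0.45. On their own, neutrophils gave 296 calls of 4944 genes (5.99%) and B cells 1 of 8762 (0.0114%). Ifit3 was at a mean of 18.1 CPM in B cells of sham and 14.0 CPM at day 14, and the monocyte effect exceeded that of B cells by 3.33 ± 0.58 on the log2 scale (edgeR adjusted p = 0.00126). For Ifi47, at 39.8 and 40.6 CPM in B cells, the difference was 1.81 ± 0.34 (edgeR adjusted p = 0.00250). For Slfn9, at 15.6 and 11.1 CPM, it was 2.11 ± 0.42 (edgeR adjusted p = 0.00517). In sums over all monocytes, the 3 interferon-related genes that B cells also held at 10 CPM or more thus rose by more than in B cells. These sums also carry the higher share of Mo4 at day 14. The part of the mixture of codes in this difference was not tested.

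In neutrophils Ifit3 was at 24 CPM in sham and 70.4 CPM at day 14, and the difference from the monocyte effect, 1.03 ± 0.48, did not pass (edgeR adjusted p = 0.333). Rsad2 was at 111 and 231 CPM in neutrophils, and the monocyte effect exceeded theirs by 2.20 ± 0.50 (edgeR adjusted p = 0.0222). Jaml was higher in neutrophils at day 14, at 519 and 1055 CPM (log2 fold change 1.04, edgeR adjusted p = 0.0254), and lower in monocytes, a difference of -2.69 ± 0.30 (edgeR adjusted p = 1.85e-05). Summed over all cells of each type, the adhesion gene thus moved in opposite directions in the 2 cell types. Without Mo2 cells its monocyte log2 fold change was -0.33 and not called. The difference from neutrophils was not fitted without them. Wfdc21 was at 6809 CPM in neutrophils of sham and 1749.7 CPM at day 14 (-1.96, edgeR adjusted p = 0.0182), Lcn2 at 4801 and 2326 CPM (-1.04, edgeR adjusted p = 0.240), and Lrg1 at 3681 and 968 CPM (-1.92, edgeR adjusted p = 0.00255). The monocyte effect lay below the neutrophil effect in all 3 (edgeR adjusted p = 0.000102, 0.000210 and 0.00160), on day 14 monocyte counts that hold the small fractions described above; the difference was not fitted with values rounded up. For Cd300lf (-1.39 ± 0.38, edgeR adjusted p = 0.0592) and Hp (-0.34 ± 0.21, edgeR adjusted p = 0.525) the difference did not pass.

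**Figure D5:**
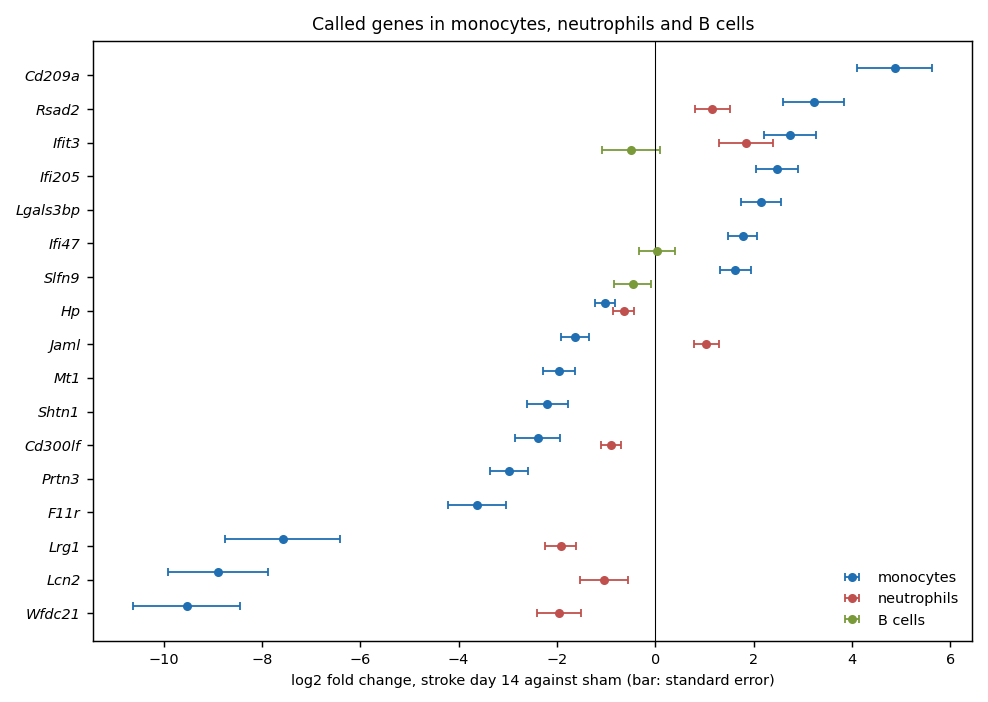
Log2 fold change at stroke day 14 against sham (points) with its standard error (bars) for the 17 called genes in monocytes and, where the type held at least 10 CPM and the gene was tested, in neutrophils and B cells. Ifit3, Ifi47 and Slfn9 are near or below 0 in B cells, and Jaml lies on opposite sides of 0 in monocytes and neutrophils. The monocyte values of Wfdc21, Lcn2 and Lrg1 rest on day 14 counts at or near 0 and are not to be read as folds.

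A difference in the monocyte share of blood cells was not detectable. It was 9.13%, 18.2%, 11.1% and 17.3% in sham (13.9% ± 4.51, SD, n = 4) and 13.8%, 20.7% and 10.5% at day 14 (15% ± 5.22, n = 3). The log2 difference was 0.11 ± 0.42 in edgeR (adjusted p = 0.966 over 9 cell types), and an exact two-sided permutation test gave p = 0.800, where 0.0571 is the smallest this design allows. The sign turned without sham replicate 1 (-0.05), without day 14 replicate 2 (-0.20) and with neutrophils left out of the total (-0.10).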

How the data were processed

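Drop-seq libraries of mouse blood were used as deposited. The values are expected counts per gene and cell that the authors deposited, fractional and not normalized. The deposited tables also give the count of genes detected in each cell, the percent of mitochondrial counts and cell type codes. Build mm10 and Seurat are named per the submitters' processing notes; the counter, its filters and the origin of the fractions are not given in the sources used here. Expected counts were summed per library over cells with parent code Mo and rounded. The 6706 genes kept by filterByExpr were fitted in edgeR 4.0.16 (R 4.3.3) over all 11 blood libraries with TMM scaling, group as the only term and the quasi-likelihood test, with Benjamini-Hochberg adjustment and a threshold of 0.05. CPM per library, list sums and means of neutrophils and B cells are scaled likewise. Levels called pooled, means of dendritic cells, single markers and S100a8 in monocytes and B cells are not. SE is the log2 fold change over the root of F. A library entered the fit of a cell type or code with 20 or more such cells. The difference of 2 cell types' effects was fitted with library as a block. DESeq2 1.42.0 and other settings were alternatives. Genes named are all called genes and, in each list, members with an unadjusted p under 0.05 or otherwise the 3 most abundant; glycolysis, proliferation and B cell genes come from the last part of that rule, and some genes it covers are not reported here. The members and lists were chosen with earlier results of these data known. The run year comes from the run code of each library. The planned exact test of the Mo2 share is not printed, since the codes rest on expression. Tested on simulated data for day 14 against sham, the fit recovered 25.7% of genes changed 2-fold and 93.3% of those changed 4-fold. The simulated counts held no run year effect, no varying mixture of codes and no spread particular to a gene. Recovery with these was not simulated.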

Additional observations from a re-analysis of the deposited data

Results flagged for a closer look

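In 8 of 142 groups of 4 libraries, 1 library of a named gene lay apart from the other 3 by more of the range than Dixon's 95% limit allows, which chance passes in about 5% of groups. Prtn3 in stroke day 2 replicate 1 was at 149.7 CPM against 87.1 to 88.6 in the others, a gap of 0.976 of the group's range. Lrg1 in stroke day 2 replicate 1 was at 541 CPM against 108 to 174 in the others, a gap of 0.847 of the group's range. Cd209a in stroke day 2 replicate 4 was at 3.96 CPM against 0 in the others, a gap of 1.00 of the group's range. Rsad2 in stroke day 2 replicate 4 was at 19.8 CPM against 7.78 to 8.86 in the others, a gap of 0.910 of the group's range. Hp in sham replicate 3 was at 1937 CPM against 1199 to 1321 in the others, a gap of 0.835 of the group's range. Cx3cr1 in sham replicate 3 was at 249 CPM against 381 to 408 in the others, a gap of 0.830 of the group's range. Bst2 in stroke day 2 replicate 2 was at 62.0 CPM against 105 to 109 in the others, a gap of 0.918 of the group's range. H2-K1 in stroke day 2 replicate 2 was at 1523 CPM against 1069 to 1139.8 in the others, a gap of 0.844 of the group's range. Of these, the sham value of Hp enters its comparison with day 14 directly, and so does that of Cx3cr1.

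The day 14 effect of a called gene differed between monocytes and another cell type in 8 tests of the difference in edgeR. Against neutrophils the log2 differences, fitted values that depend on the prior count where the day 14 counts are at or near 0 (Wfdc21, Lcn2 and Lrg1, whose sizes are not to be read as folds and were not fitted with values rounded up), were -7.82 for Wfdc21, -8.23 for Lcn2, -5.48 for Lrg1, -2.69 for Jaml and 2.20 for Rsad2. Against B cells they were 1.81 for Ifi47, 2.11 for Slfn9 and 3.33 for Ifit3.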

How the results depend on the processing

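The count of 17 genes called at day 14 against sham was 33 with DESeq2, 97 without the filter on low counts, 28 with the run year as a term, 26 in cells with at least 400 counts, 4 without Mo2 cells, 7 in run year 19 alone and 13 with only the compared groups fitted, and it ranged over 2 to 27 with 1 library left out. The 36 against stroke day 2 became 62, 128, 58, 7 and 19 with DESeq2, no filter, the run year term, no Mo2 cells and run year 19, 89 with only the compared groups fitted, and 11 to 55 with 1 library left out. Without the filter, stroke day 2 against sham gave 13, Mo1 12, Mo2 13, Mo3 2, the neutrophil difference 254 and the B cell difference 126. Mo1 gave 4 with only the compared groups fitted. With 1 library left out Mo1 gave 0 to 8, Mo3 0 to 2, the neutrophil difference 54 to 165 and the B cell difference 27 to 92. Without TMM the neutrophil difference gave 282 calls, 39 higher and 243 lower in monocytes, against 83 and 57. The labels do not say whether the replicate numbers pair the libraries. Correlations of deviations were 0.22, -0.26 and -0.12 between sham and day 14. Between sham and stroke day 2 they were 0.17, 0.20, -0.24 and 0.40. With the replicate block 31 genes were called at day 14, 15 of the 17 among them, and 3 in Mo2. The log2 difference of the monocyte share, 0.11, was -0.10 without neutrophils in the total and -0.20 to 0.31 with 1 library left out. Among named genes that were not called, Pkm turned to 0.024 with the replicate block, Ighm to -0.084 in run year 19, and Cd79b to -0.11 without Mo2 cells and -0.13 in run year 19, with -0.16 to 0.37 for Cd79b and -0.42 to 0.0020 for Tubb5 when 1 library was left out. No called gene changed direction in any alternative. The causes were not tested. Mo2 in cells with at least 400 counts was not run, and since the doublet caller marked almost no cell, the top 5% of its scores were left out instead, a choice made after seeing the data (21 calls at day 14).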
